A study of Mus musculus with 10 samples.

Results

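The occupancy of p65 was described at 10 CC chemokine genes of RAW264.7 macrophages (Ccl2, Ccl3, Ccl4, Ccl5, Ccl6, Ccl7, Ccl9, Ccl12, Ccl17 and Ccl22), of 21887 protein-coding genes in the annotation. A peak was counted at a gene when it overlapped the gene body extended by 10 kb on each side, called the window below. Of the 10 windows, 9 held a peak in at least 1 library and 1 (Ccl12) held none in any. The peaks of all libraries were merged where they overlapped into 235070 regions, of which 56 lay in these windows.

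CC chemokines are small secreted proteins that attract leukocytes through G protein-coupled receptors. Several of them are made by macrophages after contact with bacterial products, and NF-κB, of which p65 is a subunit, is a known activator of their genes. In the mouse most of these genes lie in clusters that arose by duplication, so neighbouring genes can share regulatory sequence. Skatole is a tryptophan metabolite that gut bacteria release.

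RAW264.7 is a transformed mouse macrophage-like line of wild-type genotype, raised from a tumour induced by Abelson murine leukemia virus. The cells were treated for 12 h with DMSO (the solvent), with DMSO and LPS (bacterial lipopolysaccharide, the LPS group), or with LPS and skatole (the LPS+Skatole group), and 200000 cells were used per library. Chromatin bound by p65 was cut out by CUT&Tag, in which an antibody directs a transposase to its target. The labels name a p65 antibody and the methods of the study name one against phosphorylated p65. There were 3 peak lists per group, and a no-antibody Blank sample was not analysed here. Nothing in the labels says that libraries of a group came from separate cultures, so the p-values measure the spread between libraries, which may be technical.

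The lists held 37551 to 43450 peaks in the DMSO group, 55637 to 63498 in the LPS group and 78136 to 80153 in the LPS+Skatole group. The genome background, the lowest expected count at a position and a measure of depth, was 1.28 ± 0.168, 2.29 ± 0.0594 and 2.33 ± 0.0675 (mean ± SD, n = 3). A summit therefore had to reach 6.44 to 7.34 times the genome background to enter a DMSO list, against 4.59 to 4.94 times for the remaining lists, so a weak peak was missed more readily with DMSO. Depth moved with the comparison of both treated groups with DMSO but differed little between LPS and LPS+Skatole libraries. Among 8 macrophage genes, 7 had a peak within 3 kb of a gene end in all 9 libraries, and Mrc1 had one in 1 library. Of 12 genes of other cell types, 2 had one in all 9 libraries and 3 in none.

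The sequence just before the start site is shown for the genes whose start carried peaks in the largest number of libraries of a group. RefSeq promoters (GRCm38.p6) were matched for 6 of the 10 genes, Ccl3, Ccl6, Ccl9, Ccl12, Ccl17 and Ccl22, and there was no entry for Ccl2, Ccl4, Ccl5 and Ccl7. Each line gives the 250 bases before the start, 5′ to 3′ on the strand of the gene, and capitals mark matches to a κB motif. The lines are Ccl9 (chr11:83578637-83578886, minus strand), Ccl22 (chr8:94745434-94745683, plus strand) and Ccl3 (chr11:83649379-83649628, minus strand).
Ccl9: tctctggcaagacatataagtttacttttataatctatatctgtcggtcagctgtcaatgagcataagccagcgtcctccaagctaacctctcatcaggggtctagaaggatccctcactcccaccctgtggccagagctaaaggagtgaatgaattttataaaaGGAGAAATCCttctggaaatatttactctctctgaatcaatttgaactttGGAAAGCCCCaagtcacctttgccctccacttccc
Ccl22: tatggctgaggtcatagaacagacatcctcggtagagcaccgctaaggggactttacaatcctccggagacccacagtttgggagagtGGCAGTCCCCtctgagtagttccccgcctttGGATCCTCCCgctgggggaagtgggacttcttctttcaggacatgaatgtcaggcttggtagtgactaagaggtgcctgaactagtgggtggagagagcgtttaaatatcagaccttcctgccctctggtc
Ccl3: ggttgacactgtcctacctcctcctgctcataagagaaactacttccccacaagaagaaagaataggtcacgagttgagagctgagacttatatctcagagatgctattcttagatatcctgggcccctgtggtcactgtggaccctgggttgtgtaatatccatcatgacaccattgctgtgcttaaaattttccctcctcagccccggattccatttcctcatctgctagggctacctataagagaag
Both strands were searched for the κB consensus and for the looser GGGNNNNNCC, which can overlap it. The consensus was found in 12.3% and the looser form in 45.4% of the promoters of 27025 genes. The Ccl9 promoter held 2 consensus matches, at bases -85 to -76 and -35 to -26 from the start, and the second also matched the looser form. The Ccl22 promoter held 2 matches to the looser form, at -162 to -153 and -131 to -122. All these matches read in the motif's direction on the opposite strand. Neither form was present in the 250 bases searched for each of Ccl3, Ccl6, Ccl12 and Ccl17. A peak overlapped the 250 bases of Ccl3 in all 9 libraries, those of Ccl9 in 1, 3 and 3 of the DMSO, LPS and LPS+Skatole libraries, those of Ccl22 in 0, 2 and 3, and those of Ccl6 in 1 library of each group. No library had a peak there for Ccl12 or Ccl17.

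To ask whether p65 occupancy at the chemokine genes differed between treatments, the peaks in each window were first counted. The 10 windows together held 12, 12 and 13 peaks with DMSO, 25, 29 and 26 with LPS and 24, 27 and 27 with LPS+Skatole. The LPS and LPS+Skatole libraries overlapped, and both lay above all DMSO libraries. The mean with LPS was 2.16 times that with DMSO, while the whole lists grew 1.45-fold. The mean with LPS+Skatole was 0.975 times that with LPS, while the whole lists grew 1.34-fold. As a share of the list, chemokine peaks made up 0.0304% ± 0.00245 with DMSO, 0.0453% ± 0.00449 with LPS and 0.0329% ± 0.00213 with LPS+Skatole (n = 3). The LPS shares did not overlap with those of either other group, and the ratio of LPS+Skatole to LPS was 0.727.

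**Figure D1:**
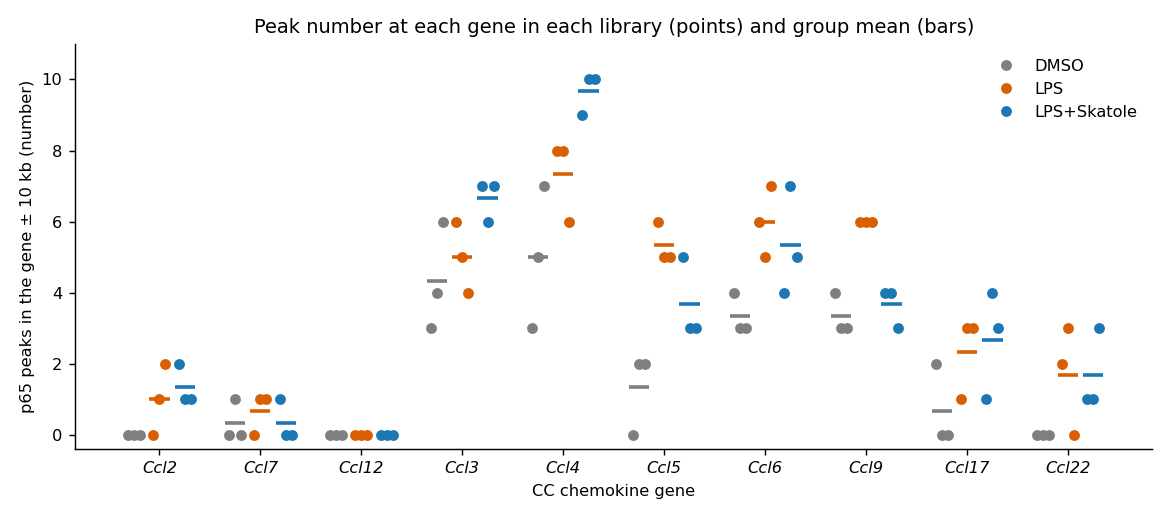
Number of p65 peaks in each gene window (y axis) for the 10 CC chemokine genes (x axis). Points are the 3 libraries of a group and bars are group means. Ccl5, Ccl6 and Ccl9 have more peaks in every LPS library than in any DMSO library, and Ccl9 has 6 in each LPS library against 3 or 4 in the LPS+Skatole libraries.

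Every LPS library had more peaks than every DMSO library at 3 of the 10 genes, Ccl5, Ccl6 and Ccl9, against 12.2% of the 19505 gene windows with a peak. No gene of the 10 had fewer, against 0.364% of all windows. With LPS+Skatole against LPS, 1 of the 10 was higher without overlap (Ccl4, against 9.1% of all windows) and 1 was lower (Ccl9, against 0.774%). With LPS+Skatole against DMSO, 4 were higher (Ccl2, Ccl4, Ccl5 and Ccl22, against 25.4%) and 0 were lower (against 0.174%). The exact permutation test over all 280 divisions of the 9 libraries gave p = 0.0107 for Ccl5, 0.0321 for Ccl4 and 0.0357 for Ccl9. After Benjamini-Hochberg adjustment over the 19505 windows the permutation test called 0% of them, and the adjusted p was 0.259 for each of these 3 genes. Unadjusted, 3083 windows (15.81%) had p under 0.05. These counts depend on the list length, thinning, the peak thresholds and the window width, as given in the closing section. The lower number at Ccl9 with LPS+Skatole than with LPS lost its separation under each of these changes.

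Ccl3 and Ccl4 encode inflammatory chemokines that attract monocytes and T cells. Their windows share 20755 bp. The RefSeq entry for Ccl4 (chr11:83648624-83664683) spans 16060 bp and overlaps the start of Ccl3 (chr11:83647843-83649378), so most of the peaks below count for both genes. The Ccl3 window held 3, 4 and 6 peaks with DMSO, 6, 5 and 4 with LPS and 7, 6 and 7 with LPS+Skatole. Every pair of these groups overlapped. The Ccl4 window held 3, 5 and 7 with DMSO, 8, 8 and 6 with LPS and 9, 10 and 10 with LPS+Skatole. Every LPS+Skatole library thus had more peaks at Ccl4 than any LPS library. Counted as merged regions with a peak, Ccl4 had 7, 6 and 5 with LPS and 6, 6 and 8 with LPS+Skatole, which overlap, so the surplus was partly of several peaks inside 1 region.

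Measured over the genome background, the strongest peak at any of the 10 genes lay at the start of Ccl3 (chr11:83647202-83650615). It was present in all 9 libraries, and its summit lay upstream of the start in 8 of them, at bases -312 to -6, and 53 bases downstream in LPS+Skatole replicate 2. The summit count was 68.8, 90.1 and 57.4 times the genome background with DMSO, 68.0, 81.8 and 97.7 with LPS and 88.9, 104 and 138 with LPS+Skatole. The highest DMSO library lay above the lowest library of each treated group. Ranked by p within its own list, the peak stood at 2668, 1174 and 4146 from the top with DMSO, at 1494, 862 and 508 with LPS and at 1100, 596 and 169 with LPS+Skatole. It thus lay within the top 10.1% of every list and the top 2.69% of every treated list.

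A second region present in all 9 libraries lay 6.79 to 9.13 kb beyond the 3′ end of Ccl3, outside annotated genes (chr11:83638712-83641057). Its summit reached 41.3, 30.7 and 42.7 times the background with DMSO, 45.3, 42.7 and 46.9 with LPS and 56.8, 69.0 and 83.5 with LPS+Skatole. All LPS+Skatole libraries lay above all LPS libraries, whose lowest value equals the highest of the DMSO group to 3 digits. Over the local background the caller used, the authors' fold was 10.6, 9.90 and 19.1 with LPS and 12.8, 28.2 and 32.9 with LPS+Skatole. On that scale LPS and LPS+Skatole libraries overlapped. Within its own list the peak stood in the top 16.5% to 27.0% with DMSO, 3.80% to 8.16% with LPS and 0.646% to 4.80% with LPS+Skatole, in lists that differ in length and depth. The summit kept its place, with an SD of 205 bp over the 9 libraries.

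Within the annotated Ccl4 body, 3 further regions were present in all treated libraries. No start site was available for Ccl4, so it is not given whether any of these regions lies at its start. The first (chr11:83655039-83656773) was called in all 9 libraries, at 13.8, 15.0 and 19.1 times the background with DMSO, 17, 25.6 and 22.6 with LPS and 25.6, 34.5 and 23.8 with LPS+Skatole. The other two (chr11:83657392-83660018 and chr11:83661691-83666047) were called in all libraries but DMSO replicate 1. The region at the high end of Ccl4 in chromosome order reached 35.0 and 33.9 times the background in 2 DMSO libraries. It reached 61.0, 63.8 and 67.4 times with LPS and 64.1, 51.3 and 66.8 times with LPS+Skatole. LPS and LPS+Skatole libraries overlapped there, with a ratio of means of 0.948. Its within-list ranks ran from 6168 to 54463 in the treated lists. In the treated lists the local background the caller used there ran from 23.1 to 87.5 counts, and the summit counts from 116 to 160. Over the local background the authors' fold was 3.47 and 3.60 with DMSO, 1.69, 1.81 and 3.47 with LPS and 1.71, 2.63 and 6.68 with LPS+Skatole, so on that scale no LPS library lay above the DMSO libraries.

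**Figure D2:**
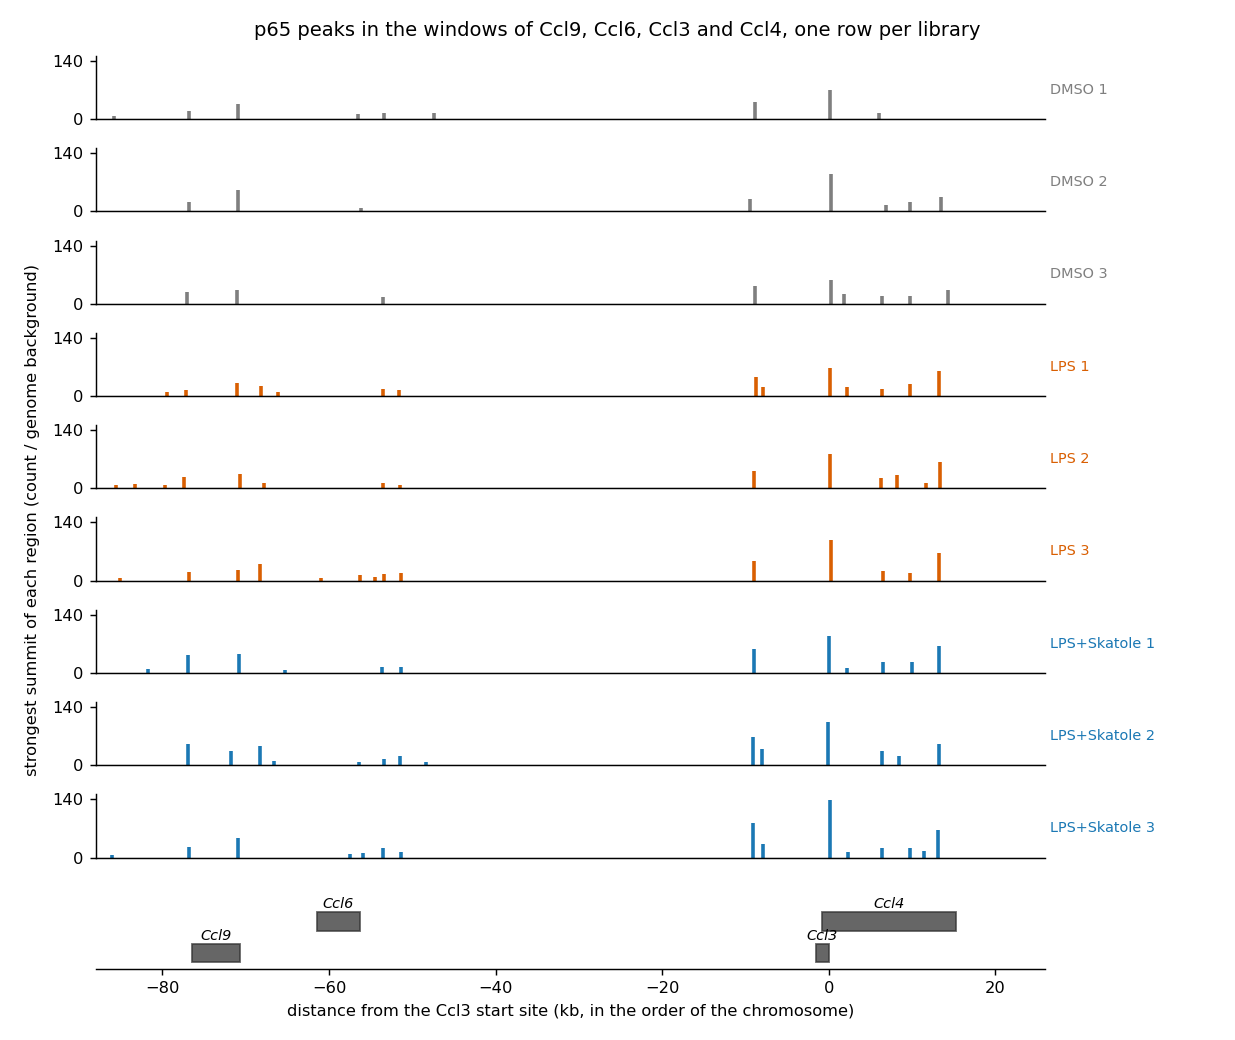
Summit count over genome background (y axis, strongest summit of each region) against distance from the Ccl3 start in kb (x axis), for the windows of Ccl9, Ccl6, Ccl3 and Ccl4. Each row is a library, and boxes are gene bodies. The Ccl3 start peak at 0 is the tallest in every row, from 57.4 to 138.

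Ccl9 and Ccl6 encode chemokines that act through Ccr1. Their windows share 10751 bp. The Ccl9 window held 4, 3 and 3 peaks with DMSO, 6, 6 and 6 with LPS and 4, 4 and 3 with LPS+Skatole. All LPS libraries lay above all libraries of the other groups, whose means were 3.33 and 3.67. The Ccl6 window held 4, 3 and 3 peaks with DMSO, 6, 5 and 7 with LPS and 4, 7 and 5 with LPS+Skatole, and the last 2 groups overlapped.

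Counted as merged regions with a peak instead of as peaks, Ccl9 had 3, 2 and 2 with DMSO, 5, 6 and 5 with LPS and 4, 4 and 3 with LPS+Skatole, again without overlap between the treated groups. Its strong regions were called in all 9 libraries. The region at the Ccl9 start (chr11:83577055-83579822) was listed as 2, 2 and 2 peaks with DMSO, 2, 1 and 2 with LPS and a single peak in each LPS+Skatole library. Its strongest peak was 961 to 1275 bp long with DMSO, 1234 to 2310 bp with LPS and 2292 to 2581 bp with LPS+Skatole. The summit reached 35.8, 52.2 and 31.6 times the background with DMSO, 32.3, 34.1 and 25.2 with LPS and 44.4, 35.4 and 47.6 with LPS+Skatole. All LPS+Skatole libraries lay above all LPS libraries, and the DMSO libraries overlapped both groups. The local background there ran from 6.18 to 58.0 counts, however, and over it the authors' fold was 2.70, 2.84 and 2.05 with LPS and 1.82, 11.3 and 1.95 with LPS+Skatole, so on that scale 2 of the 3 LPS+Skatole libraries lay below every LPS library. Its strongest summit lay 8 to 1003 bases downstream of the start, with a median of 171, next to the promoter bases with the κB matches printed above. The region at the 3′ side of Ccl9 (chr11:83571420-83573268) had its summit 402 to 919 bp beyond the 3′ end in all 9 libraries, and the peak reached into the gene in 3 of them. It stood at 19.3, 22.9 and 27.2 times the background with DMSO, 14.8, 27.4 and 20.1 with LPS and 43.6, 51.3 and 25.9 with LPS+Skatole. LPS+Skatole replicates 1 and 2 stood above all LPS libraries and replicate 3 did not.

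A region 2.41 to 3.45 kb upstream of Ccl9 (chr11:83581050-83582088, in the body of the annotated gene E230016K23Rik) had a peak in 0 of the DMSO, 3 of the LPS and 1 of the LPS+Skatole libraries. Its summits of 23.5, 12.1 and 39.2 times the genome background with LPS and 45.1 in LPS+Skatole replicate 2 stood on a local background of 26.8, 5.77, 56.1 and 54.4 counts. The authors' fold over that local background was therefore only 1.98, 4.14, 1.63 and 1.86, and in 2 of the 3 LPS lists the peak ranked among the last 5%. After every list was thinned to the lowest genome background of the 9, it was called in 0, 1 and 1 libraries. Upstream of Ccl6, a region 2.05 to 3.65 kb away (chr11:83595137-83596739) was called in 2, 3 and 3 libraries, at 12.1 to 23.4 times the background. A neighbour 4.13 to 5.31 kb away (chr11:83597219-83598397) was called in 0, 3 and 3, at 7.64 to 17.9 times with LPS and 13.2 to 21.7 times with LPS+Skatole. Thinned, the neighbour was called in 0, 2 and 3 libraries.

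Ccl5 (chr11:83525778-83530518) encodes a chemokine for T cells and monocytes. Its window held 0, 2 and 2 peaks with DMSO, 6, 5 and 5 with LPS and 5, 3 and 3 with LPS+Skatole, so that both treated groups lay above DMSO. A region inside the gene body (chr11:83527319-83528807, where Gm32650 is annotated as well) had a peak in each of the 6 treated libraries and in 0 with DMSO. Its summit reached 12.6, 15.7 and 14.1 times the background with LPS and 11.5, 15.9 and 24.2 with LPS+Skatole. These values overlapped, and each was above the 7.34 at which peaks began in the shallowest DMSO list. After thinning to an equal genome background the region was still called in the same 6 libraries. Thinning, a random draw, can only remove listed peaks, so it could not show a peak with DMSO.

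Beyond the high end of Ccl5, a region 3.63 to 5.03 kb away (chr11:83534150-83535551) was called in 2 DMSO and all treated libraries. It reached 17.9 and 14.7 times the background with DMSO, 24.8, 13.9 and 17.1 with LPS and 33.3, 27.4 and 19.6 with LPS+Skatole. The LPS libraries overlapped both other groups, and all LPS+Skatole libraries lay above the 2 DMSO libraries with a peak. A weaker one 5.31 to 6.48 kb away (chr11:83535832-83536999) was called in 2, 3 and 2 libraries at 8.11 to 13.2 times the background. Of the 11 regions in the Ccl5 window, 6 were called in 1 library only.

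**Figure D3:**
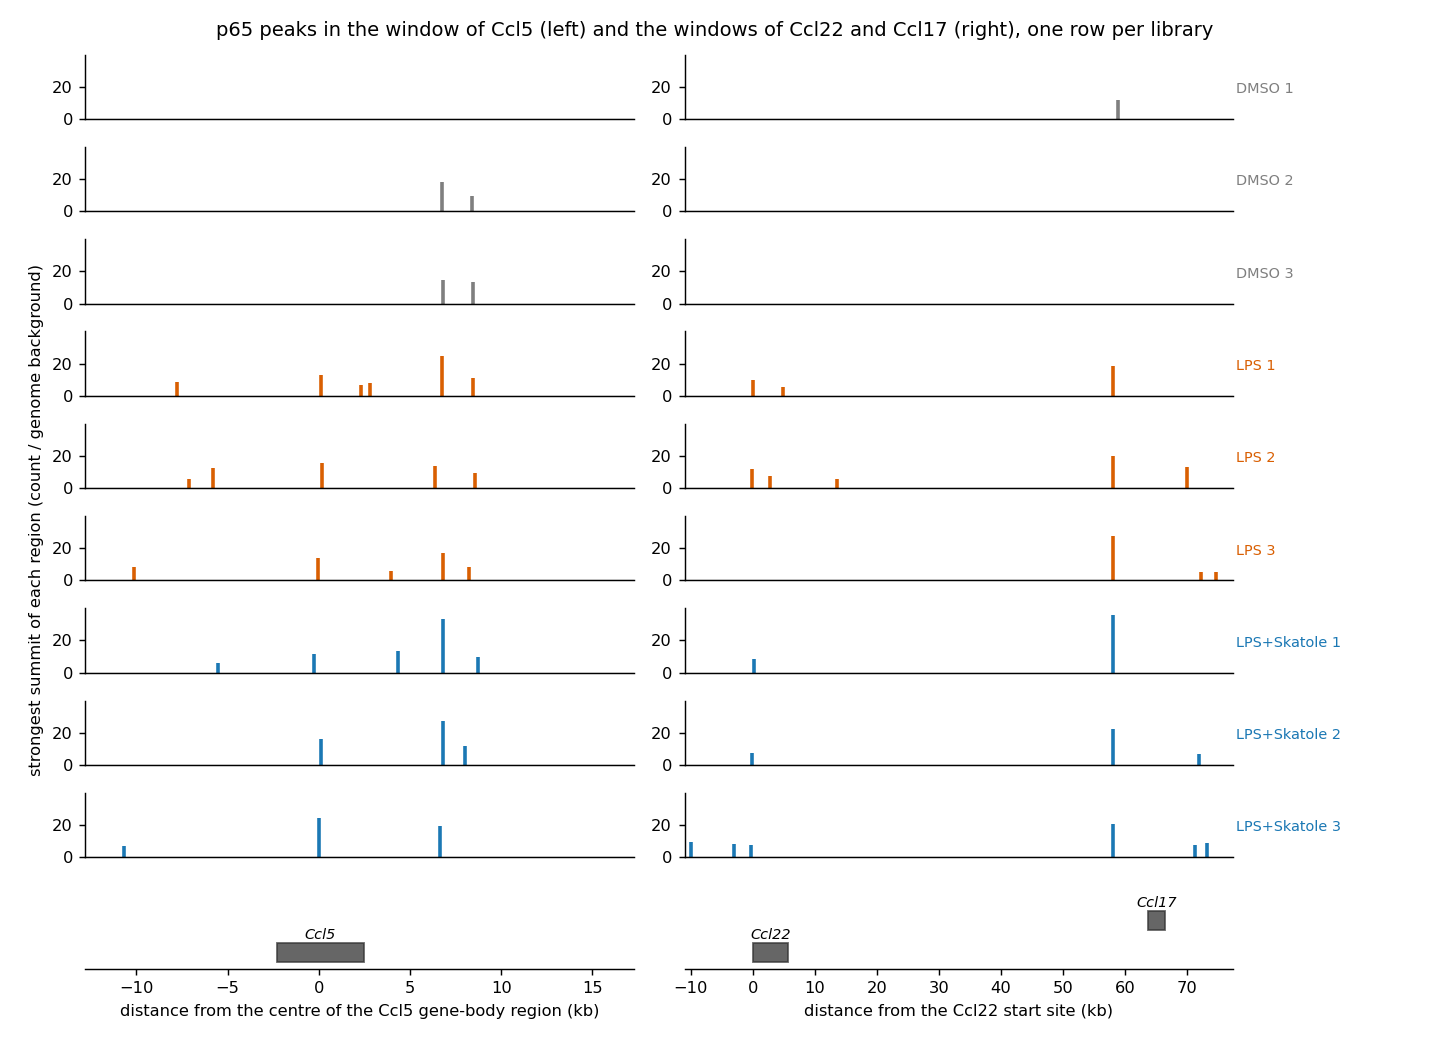
Summit count over genome background (y axis, strongest summit of each region) against distance in kb (x axis) from the centre of the Ccl5 gene-body region (left) and from the Ccl22 start (right). Each row is a library, and boxes are gene bodies. The Ccl5 gene-body peak at 0 is present in 3 LPS and 3 LPS+Skatole rows and in 0 DMSO rows.

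Ccl17 and Ccl22 lie on chromosome 8 and encode ligands of Ccr4, which attract regulatory and type 2 helper T cells. The Ccl22 window held 0, 0 and 0 peaks with DMSO, 2, 3 and 0 with LPS and 1, 1 and 3 with LPS+Skatole. A region at the Ccl22 start (chr8:94745222-94746166), over the promoter printed above, was called in LPS replicates 1 and 2 at 9.59 and 12.1 times the background and in the LPS+Skatole libraries at 8.55, 7.52 and 7.52 times. Both LPS values were above all LPS+Skatole values, and the lowest lay close to the level at which peaks began in the DMSO lists. Thinned in that way, it was called in 0, 1 and 3 libraries. The Ccl17 window held 2, 0 and 0 peaks with DMSO, 1, 3 and 3 with LPS and 1, 4 and 3 with LPS+Skatole. One region upstream of Ccl17 (4.24 to 7.38 kb from the gene, chr8:94802003-94805143) was called in DMSO replicate 1 at 11.9 times the background. It was called in all LPS libraries at 18.3, 19.8 and 27.3 times and in all LPS+Skatole libraries at 35.9, 22.6 and 20.5 times. The treated groups overlapped, and the region was still called in 1, 3 and 3 libraries after thinning. No peak in any library touched the body of Ccl17.

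Ccl2, Ccl7 and Ccl12 encode monocyte chemoattractants that act through Ccr2. Together their 3 windows held 6 regions, 5 of them called in 1 library only and none in all 3 libraries of a group. The Ccl2 window held 0, 0 and 0 peaks with DMSO, 0, 1 and 2 with LPS and 2, 1 and 1 with LPS+Skatole. Its start (chr11:82035031-82036025) was called in LPS replicate 2 at 20.2 times the background and in LPS+Skatole replicates 1 and 2 at 12.0 and 15.5 times. In LPS replicate 2 the peak stood 8264 from the top of 58109, so it was far from the threshold there while 2 other LPS libraries had none. The Ccl7 window (chr11:82035712-82057525) held 0, 1 and 0 peaks with DMSO, 0, 1 and 1 with LPS and 1, 0 and 0 with LPS+Skatole, and none touched the gene body. It shares 11741 bp with the Ccl2 window, and only the DMSO peak lay outside that stretch. The Ccl12 window (chr11:82091845-82113399) held 0 peaks in every library. Absence here means no peak past the authors' threshold, which a weak signal can miss.

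To ask which regions appeared or were lost as a whole, regions with a peak in every library of one group and in none of another were counted. With LPS against DMSO, 3 of 14 chemokine regions were gained (the Ccl5 gene body, the region upstream of Ccl9 and the farther one upstream of Ccl6), against 9.53% of all regions called in 3 libraries of either group. None was lost, against 0.395%. With LPS+Skatole against LPS, 0 of 15 were gained (against 3.97%) and 0 were lost (against 0.877%). With LPS+Skatole against DMSO, 3 of 13 were gained (the Ccl5 gene body, the farther region upstream of Ccl6 and the Ccl22 start), against 15.5%, and 0 were lost, against 0.287%. Most regions were not repeated between libraries: 31 of the 56 (55.4%) were called in 1 library only, against 71.3% of all regions.

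**Figure D4:**
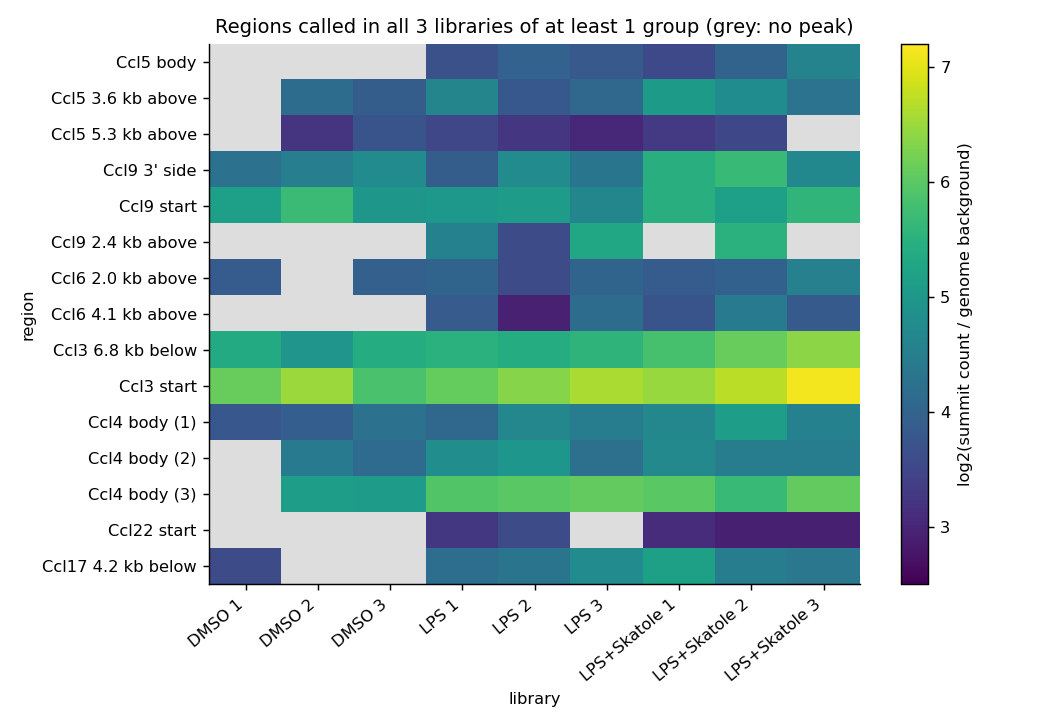
Log2 of summit count over genome background (colour) for the 15 chemokine regions called in all 3 libraries of at least 1 group (rows) in the 9 libraries (columns). Grey marks no peak, and labels give the gene part or the distance in kb from the nearest of the 10 genes, below or above it in chromosome order. The Ccl5 body row is grey in the 3 DMSO libraries and filled in the other 6.

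The height of the summits was tested with limma at the 13824 regions called in all 9 lists, of which 5 lay at chemokine genes, on log2(summit count / genome background). With LPS against DMSO, limma called 0 of the 5 (0.709% of all regions were higher and 3.68% lower at an adjusted p under 0.05), and 0 had an unadjusted p under 0.05, against 3197 of the 13824 regions. The median log2 difference was 0.20 over the 5 and -0.24 over all regions. Being in all 9 lists required a taller summit over the genome background with DMSO than in the treated groups. What this did to the medians was not tested. With LPS+Skatole against LPS, limma called 0 of the 5 (1.15% of all regions were higher and 0.0434% lower), and 3 had an unadjusted p under 0.05, against 2679 of the 13824 regions. All 5 differences were positive, as were 78% over all regions, with a median of 0.48, but the median of all regions was 0.24 on this scale. The difference was 0.94 ± 0.30 (SE) just beyond the 3′ end of Ccl9, with a 95% interval of 0.33 to 1.56 and a limma adjusted p of 0.0932. It was 0.62 ± 0.22 beyond the 3′ end of Ccl3 (limma adjusted p = 0.128) and 0.41 ± 0.19 at the Ccl3 start (limma adjusted p = 0.236). It was 0.48 ± 0.25 at the Ccl9 start and 0.37 ± 0.30 in the Ccl4 body, with intervals of -0.03 to 0.99 and -0.24 to 0.97. After each library was centred on its median, the 5 differences were 0.09 to 0.66.

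With LPS+Skatole against DMSO, limma called 2 of the 5, both higher (4.92% of all regions were higher and 2.5% lower). An unadjusted p under 0.05 was found for 4 of the 5, against 3057 of the 13824 regions. The region beyond the 3′ end of Ccl3 rose by 0.87 ± 0.22 on the log2 scale (limma adjusted p = 0.0111), higher in 3 of 3 LPS+Skatole libraries than in any DMSO library. The Ccl3 start rose by 0.62 ± 0.19 (limma adjusted p = 0.0443), with 1 DMSO library above 1 LPS+Skatole library. This second call was lost when each library was centred on its median (limma adjusted p = 0.0755). It was also lost without DMSO replicate 1 or 3, LPS replicate 2 or LPS+Skatole replicate 2 (limma adjusted p of 0.0996, 0.205, 0.0532 and 0.0817). The first was lost without DMSO replicate 2 (limma adjusted p = 0.0644), and without LPS+Skatole replicate 3 neither was made (limma adjusted p of 0.0813 and 0.234). The median over the 5 was 0.76, against -0.01 over all regions, with the same limit from the higher entry level of the DMSO lists.

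**Figure D5:**
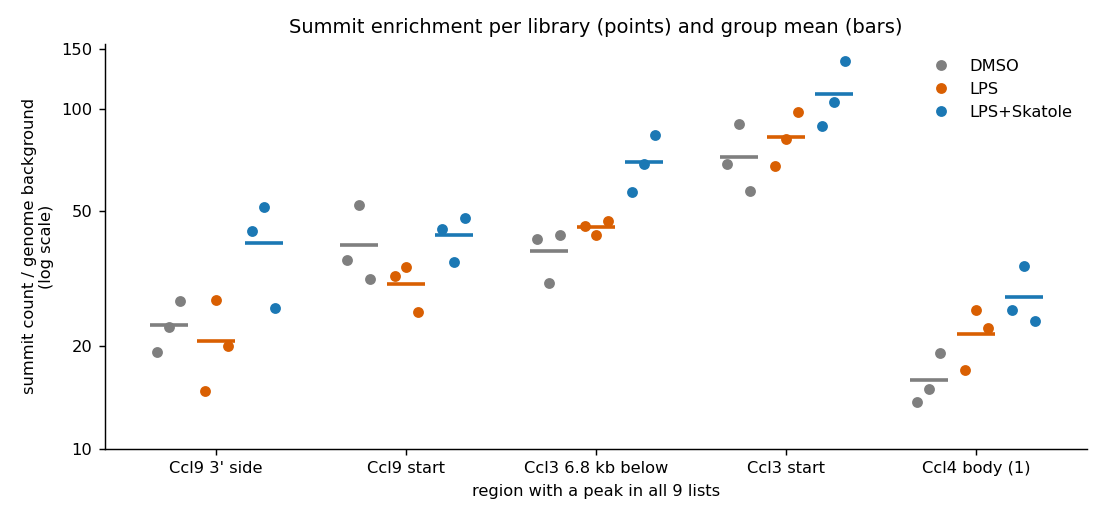
Summit count over genome background (y axis, log scale) at the 5 chemokine regions called in all 9 lists (x axis). Points are libraries and bars are group means. The LPS+Skatole points of the region beyond the 3′ end of Ccl3 (labelled as 6.8 kb below Ccl3), at 56.8 to 83.5, lie above all others of that region.

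The other genes of the CC chemokine system were counted in the same way. Of 10 other CC ligand genes, 9 had a peak in their window in some library and 1 had one in all 9 libraries, against 4 of the 10 genes described above and 54.2% of all protein-coding genes. Among these ligands Ccl27a was higher with LPS than with DMSO without overlap (1, 1 and 2 against 0, 0 and 0 peaks). Ccl24 was higher with LPS+Skatole than with DMSO (5, 3 and 4 against 0, 1 and 2). That is 1 of 10 in each comparison, below the shares over all windows of 12.2% and 25.4%. Of 12 receptor genes, all had a peak in some library and 2 in all 9. Ccr8 held 1, 1 and 0 peaks with DMSO, 0, 1 and 0 with LPS and 2, 3 and 2 with LPS+Skatole, and Ccr7 held 0, 0 and 0, 1, 0 and 1, and 3, 1 and 4. Of the 12 receptors, 1 was higher with LPS+Skatole than with LPS (Ccr8, against 9.1% of all windows) and 2 than with DMSO (Ccr7 and Ccr8, against 25.4%). None of these genes passed the adjustment over all windows.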

How the data were processed

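Peaks were called per library by the authors and deposited as narrowPeak lists. The deposited fold is the authors' ratio of summit to local background, the −log10 p and −log10 q are the authors' own, and the deposited score was not used beyond checks. The submitters' processing notes name the build mm10 (GRCm38). There, fastp 0.20.1, HISAT2 2.1.0 and StringTie 2.0 are listed with no role given. The peak caller, its control and the treatment of duplicates are not given in the sources used here.

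Summit counts and local backgrounds were recovered from the fold, taken as (count + 1)/(background + 1), and a Poisson −log10 p. Counts came out whole, within 0.05, for over 99.99% of the peaks of every list. The lowest background of a list was used as its depth, since total reads are unknown here. Fewer counts give less certain summits, and PCR duplicates may be among them. Gene positions are from RefSeq (GRCm38.p6), peaks overlapped a window by at least 1 bp, and regions were merged peaks.

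Peak numbers per window were compared with two-sided exact permutation tests between groups (3 against 3 cannot go below 0.1) and jointly over 280 divisions, with Benjamini-Hochberg adjustment. Totals over the 10 genes are described without a test. Summits were tested with limma 3.58.1 (R 4.3.3, trend, adjusted over all regions) and not with a count model, since the lists hold no counts per feature. The scripts were tested on simulated data. All regions called in 3 of 3 libraries of a group, and all 10 genes, are named. 1 item is not reported here. The genes and lists were chosen with earlier results of these data known. Alternatives were equal list length, thinning to equal genome background, stricter thresholds, other windows, other scalings and leaving out each library.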

Additional observations from a re-analysis of the deposited data

How the results depend on the processing

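Of 300 recomputed values of the main results, 248 kept their direction and call or, for counts, stayed within 1.5 times. For the others the cause was not tested, except that stricter or thinned lists hold fewer peaks. The ratio of chemokine peaks in LPS+Skatole to LPS lists, 0.975, was 0.825 with lists of equal length, 1.05 after thinning, 1.06 with summits of at least 8 times the background, 1.12 with a −log10 q of at least 5, 1 with windows of 3 kb and 1.12 with windows of 50 kb, and 0.945 to 1.02 without single libraries. With lists of equal length the ratios to DMSO fell from 2.16 to 1.58 for LPS and from 2.11 to 1.31 for LPS+Skatole. The ratio of shares stayed between 0.694 and 0.847 for LPS+Skatole to LPS, and between 1.33 and 1.67 for LPS to DMSO.

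The number of genes with more peaks in every LPS than DMSO library, 3, became 1 with lists of equal length, after thinning or with windows of 3 kb, and 6 with windows of 50 kb, and was 3 to 5 without single libraries. The gene higher with LPS+Skatole than LPS (Ccl4) was lost, leaving 0, with equal length, thinning, 3 kb or 50 kb, and the count was 1 to 2 without single libraries. The gene lower (Ccl9) was lost, leaving 0, with equal length, thinning, both stricter thresholds and both other windows, and the count was 1 to 2 without single libraries. The 4 genes higher with LPS+Skatole than DMSO became 1 at equal length, 2 at 8 times the background and 9 at 50 kb, and were 4 to 6 without single libraries. At single genes, the difference in mean peak number between LPS and DMSO fell with lists of equal length from 2.67 to 0 at Ccl9 and from 2.67 to 0.67 at Ccl6, and with 3 kb it went from 4 to 2 at Ccl5 and was -0.33 at Ccl3. Between LPS+Skatole and LPS it fell from 2.33 to 0.33 at Ccl4 and was -0.33 at Ccl3 with equal length, went from -2.33 to -1 at Ccl9 with a −log10 q of at least 5, and was 0.67 at Ccl6 after thinning and 2 at Ccl7 with 50 kb. Without single libraries the last difference ran from -0.17 to 0.83 at Ccl2 and from -0.33 to 1.17 at Ccl17.

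Regions gained with LPS, 3, were 1 after thinning, 5 with 50 kb and 6 when 2 of 3 libraries sufficed, and 3 to 6 without single libraries. Regions lost with LPS+Skatole against LPS, 0, were 2 when 2 of 3 libraries sufficed and 0 to 2 without single libraries. Regions gained with LPS+Skatole against DMSO, 3, were 7 with 50 kb, 6 with summits joined within 250 bp and 5 when 2 of 3 libraries sufficed.

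The limma calls for LPS against DMSO, 0, were 3 on unscaled counts and 1 on rank percentiles or with regions called in at least 6 of 9 libraries. The 2 calls for LPS+Skatole against DMSO were 1 after median centring, with the authors' fold or with only these groups fitted, 5 on unscaled counts, 3 on rank percentiles, and 0 to 2 without single libraries. With regions called in at least 6 of 9 libraries 2 calls were made, but the Ccl3 start was lost (limma adjusted p = 0.0575) and the high end of Ccl4 was called instead. Just beyond the 3′ end of Ccl9 the log2 difference between LPS and DMSO, -0.19, became 0.0097 after centring and 0.66 unscaled, 9.64 percentile points by rank, and -0.41 to 0.034 without single libraries. At the Ccl9 start it became 0.48 unscaled. There, LPS+Skatole against DMSO, 0.11, became -0.15 with the authors' fold, -4.39 percentile points by rank, and -0.036 to 0.32 without single libraries. Summit heights in libraries with the same replicate number did not deviate together from their group means (correlations of -0.0096 to 0.0141). This does not settle whether those libraries were prepared together. With a replicate block limma again made 0, 0 and 2 calls.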
